A study of Homo sapiens with 4 samples.

Results

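The contacts described here join 1 of 3 bait bins at the TFAP2C locus to places on chromosome 20 more than 1 Mb away. They were taken from tables of contacts between 5 kb bins (GRCh37) as every pair with a bait bin at one end and a bin starting over 1 Mb from it at the other. This gave 1136 pairs of bins with 2278 contacts, out of 36932 pairs with 120812 contacts in all, or out of 25285 pairs with 32374 contacts when pairs within a single bin are left out. A further step set apart 2 of the 1136 pairs, the recurrent bins, which alone held 385 contacts. The other 1134 pairs held 1893 contacts and are called distal contacts below. At the edge of the rule, 15 pairs with 23 contacts lay up to 100 kb past 1 Mb, and 11 pairs with 24 contacts lay up to 100 kb short of it.

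UMI-4C counts how often a chosen DNA fragment, the bait, has been ligated to other fragments of crosslinked chromatin. The cells were surface ectoderm derived from H9, an established human embryonic stem cell line, after 7 days in 1 uM retinoic acid and 5 ng/ml BMP4. There were 2 libraries from wild-type cells and 2 from p63-null (p63-/-) cells, and both genotypes had the same treatment. The labels call the libraries duplicates without saying whether they were separate cultures. The p-values between genotypes therefore rest on how far these particular libraries spread, which may be technical variation. The chi-square p-values between replicates are set against counting error instead. They give neither how the p63-null line was made nor how many clones it holds. TP63 lies on another chromosome, and contact counts do not measure expression, so neither the genotype nor the cell type could be checked here.

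TFAP2C encodes an AP-2 transcription factor of early ectoderm and placenta, and p63 is a transcription factor that stratified epithelia need. Along a chromosome, the chance that a pair of sites meets falls with the length of DNA between them. A chromosome keeps to a territory of its own in the nucleus, so sites on opposite arms still meet, at a low rate. Far contacts of a bait therefore describe how its surroundings sit within the territory, while enhancers mostly act over shorter distances.

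The bait bins lie at 55,200,001 to 55,205,000 (the TFAP2C bait), 55,380,001 to 55,385,000, which is 180 kb above it (the +180 kb bait), and 55,420,001 to 55,425,000, which is 220 kb above it (the +220 kb bait). Libraries held between 16744 and 44199 contacts, and the pairs over 1 Mb from a bait made up between 5.00 and 10.1% of the contacts between different bins. Values of single libraries are given in the order wild-type replicate 1, wild-type replicate 2, p63-null replicate 1 and p63-null replicate 2. In that order the distal contacts numbered 614, 377, 373 and 529. Of them 254, 140, 160 and 225 belonged to the TFAP2C bait, 147, 97, 77 and 121 to the +180 kb bait, and 213, 140, 136 and 183 to the +220 kb bait. Such numbers limit what can be seen: the intervals of shares, rates and ratios given below cover counting error only, those of log2 changes come from edgeR's estimate of the spread between libraries, and the sources used here do not say whether copies of a molecule were collapsed before counting.

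Summed over baits and libraries, contacts thinned out with distance and then levelled off. Rates are given per 100 covered bins, where a covered bin had at least 1 contact that involved no bait in any library. There were 11821 covered bins, 5159 on the short arm (starts below 26 Mb) and 6662 on the long arm. Over the 3 baits and 4 libraries, the bins 1 to 2 Mb below a bait had 42.0 contacts per 100 bins (exact Poisson 95% interval 33.5 to 52.0). The bins 2 to 5 Mb below had 35.1, those 5 to 10 Mb below 20.8 and those 10 to 20 Mb below 18.4. The long-arm bins over 20 Mb below had 11.3 (9.48 to 13.4), and the short arm had 9.65 (8.82 to 10.5). On the higher side the rate was 48.5 at 1 to 2 Mb (39.3 to 59.2), 31.1 at 2 to 5 Mb and 22.8 over 5 Mb. The interval of the nearest lower-side band lay well above that of the short arm, while the long-arm bins over 20 Mb away and the short arm had intervals that overlapped.

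**Figure D1:**
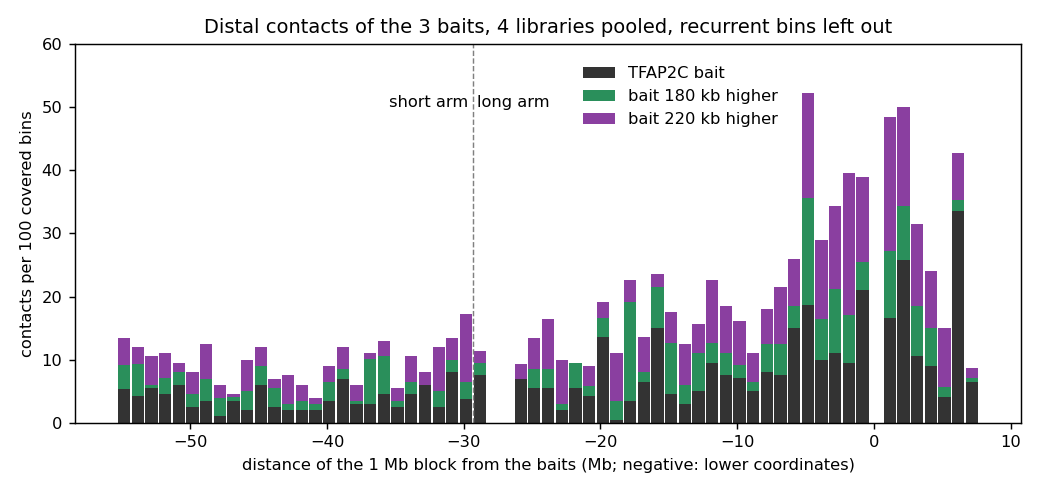
Contacts per 100 covered 5 kb bins (vertical axis) in blocks of 1 Mb along chromosome 20, placed by distance in Mb from the baits (horizontal axis), summed over 4 libraries and stacked by bait. Recurrent bins are left out and the dashed line is the boundary used between the arms. The blocks near the baits stand above those of the short arm, and the tall block about 6 Mb above the baits is mostly from the TFAP2C bait (58 of 74 contacts).

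The steepness of this fall was measured as the slope of contacts on distance over the long arm, on natural log scales, from a Poisson regression. A slope of 0 would mean no fall. For the 3 baits summed it was -0.55, -0.56, -0.19 and -0.47, with means of -0.56 ± 0.004 (wild-type) and -0.33 ± 0.20 (p63-null, SD, n = 2 each). The slopes of both p63-null libraries were shallower than those of both wild-type libraries, by 0.22 on average, with an exact permutation p of 0.33, the smallest that 2 against 2 libraries allow. The p63-null replicates differed from each other by more than this, so the difference did not exceed the spread between replicates. It was 0.08 without p63-null replicate 1, 0.36 without p63-null replicate 2 and 0.12 with partner bins counted once. For the TFAP2C bait the slopes were -0.57, -0.59, -0.08 and -0.39 (SE 0.12, 0.20, 0.22 and 0.16). Those of the +180 kb bait (-0.44, -0.32, -0.21 and -0.36) and of the +220 kb bait (-0.60, -0.67, -0.31 and -0.65) overlapped between genotypes. Pairs of long-arm bins without a bait fell by -0.76, -0.58, -0.74 and -0.67, with the genotypes interleaved, so the shallow slope of p63-null replicate 1 was not seen in them.

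**Figure D2:**
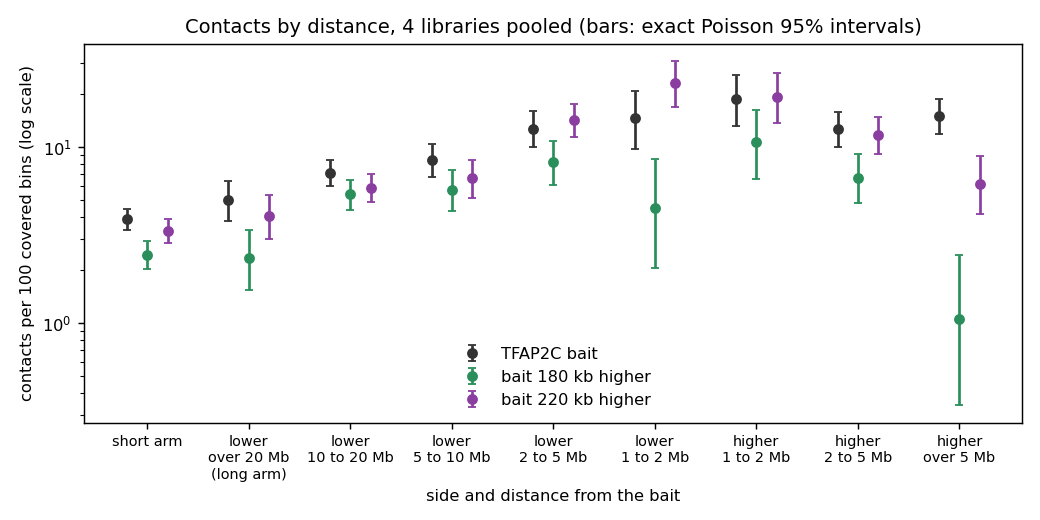
Contacts per 100 covered bins on a log scale (vertical axis) by side and distance from each bait (horizontal axis), 4 libraries pooled, with exact Poisson 95% intervals as bars. The +180 kb bait falls to 1.05 over 5 Mb on the higher side, below its own rate in every other band.

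As a whole, the short arm was met more rarely than the long arm. It took 498 of the 1893 distal contacts. The rate on the short arm was 0.36, 0.36, 0.56 and 0.51 times that on the long arm, in all 4 libraries below 1. Since the short arm is farther from the baits than any long-arm bin below them, arm and distance cannot be told apart from this ratio. Across the centromere itself no step was detectable at this depth. Bins between 30 and 36 Mb, on the long arm, had 154 contacts (13.0 per 100 bins) and those between 20 and 26 Mb, on the short arm, had 131 (11.1 per 100 bins), a ratio of 1.17 (exact interval 0.92 to 1.49). By library this ratio was 1.36, 1.48, 1.18 and 0.78, so p63-null replicate 2 went the other way. The ends of the short arm were met at similar rates: the bins from 20 to 26 Mb were met 1.03 times as often as those from 0 to 6 Mb at the tip (0.80 to 1.33). Single blocks between and at these ends ran from 4.00 (at 14 Mb) to 17.2 contacts per 100 bins (at 25 Mb), and that last rate was above those of several long-arm blocks, such as 8.95 at 34 Mb. The 53 covered bins between 26 Mb and the long uncovered stretch at the centromere, with 6 contacts, count as long arm by the rule.

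A larger part of the distal contacts fell on the short arm in the p63-null libraries. Of the distal contacts of the 3 baits, 22.6, 22.8, 31.4 and 29.5% met the short arm (139, 86, 117 and 156 contacts). Both p63-null libraries lay above both wild-type libraries, at a mean of 30.4% ± 1.33 against 22.7% ± 0.12 (SD, n = 2 each), a difference of 7.70 percentage points with an exact permutation p of 0.33. Contacts were then summed into 9 bands of side and distance and tested with edgeR's quasi-likelihood test, relative to the distal contacts of the library. Of these 9 bands 2 passed at an adjusted p of 0.05, which is 22.2%. The short arm rose by 0.41 on the log2 scale (SE 0.09, 95% interval 0.23 to 0.60, edgeR adjusted p 0.00834). This SE is smaller than the counting error of the 225 and 273 contacts behind it, which is 0.13 on the log2 scale. The interval may thus be too narrow and the p too small. The band 1 to 2 Mb below the baits fell, from 35 and 30 contacts in wild-type to 7 and 12 in p63-null libraries, or from 6.83% ± 1.60 to 2.07% ± 0.28 of the distal contacts (SD, n = 2 each). Its log2 change was -1.63 (SE 0.45, interval -2.56 to -0.69, edgeR adjusted p 0.00834). Because all bands of a library add up to 1 total, the fall and the rise are not separate evidence. When tried on simulated counts, the band test for the sum also called bands that had not been changed. It called 14.06% of the unchanged bands with 4-fold changes and 33.44% with 8-fold changes, and fewer with 2-fold changes. Whether the call of the short arm is such a false call was not tested.

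The other 7 bands did not pass, with edgeR adjusted p between 0.376 and 0.967. The band 10 to 20 Mb below the baits had 115, 63, 88 and 100 contacts (log2 change 0.21), and the band 2 to 5 Mb below had 79, 44, 29 and 58 (-0.36). Both calls were lost in some of the alternatives. The rise on the short arm missed the threshold with DESeq2 (log2 change 0.64, adjusted p 0.0890) and with each partner bin of a bait counted once per library (0.26, edgeR adjusted p 0.284). It also did so in edgeR without wild-type replicate 1 (adjusted p 0.366), without wild-type replicate 2 (0.245) and without p63-null replicate 1 (0.116). The fall at 1 to 2 Mb missed it in edgeR without wild-type replicate 2 (log2 change -1.43, adjusted p 0.103), without p63-null replicate 1 (-1.52, 0.359) or p63-null replicate 2 (-1.79, 0.183), and passed with DESeq2 (-1.49, adjusted p 0.0276).

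By bait, the rise on the short arm was largest for the +220 kb bait. Its short-arm shares were 18.3, 18.6, 35.3 and 32.2% (39, 26, 48 and 59 contacts), averaging 18.4% ± 0.19 for wild-type and 33.8% ± 2.16 for p63-null libraries (SD, n = 2 each). The difference between genotypes was 11.0 percentage points larger than for the TFAP2C bait and 13.4 larger than for the +180 kb bait, each with an exact permutation p of 0.33. With the same 9 bands tested for this bait alone, an alternative chosen after seeing the data, 1 band passed, which is 11.1%. That band was the short arm, at a log2 change of 0.87 (SE 0.14, interval 0.58 to 1.15, edgeR adjusted p 0.00094). Here too the SE is below the counting error of the 65 and 107 contacts, 0.23. The call was lost with DESeq2 (1.12, adjusted p 0.825), with each partner bin counted once (0.60, edgeR adjusted p 0.277), and in edgeR without wild-type replicate 1 (0.86, adjusted p 0.255) or wild-type replicate 2 (0.88, adjusted p 0.317). The band 1 to 2 Mb below this bait went from 17 and 20 contacts to 6 and 3, with -1.89 as the log2 change (edgeR adjusted p 0.194).

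The TFAP2C bait had short-arm shares of 21.3, 26.4, 27.5 and 28.9% (54, 37, 44 and 65 contacts). The p63-null values were again the higher ones, but wild-type replicate 2 lay nearly level with them, and the log2 change of 0.29 did not pass (SE 0.16, interval -0.16 to 0.75, edgeR adjusted p 0.452). The shares of the +180 kb bait, 31.3, 23.7, 32.5 and 26.4%, overlapped between genotypes (log2 change 0.03, interval -0.59 to 0.64, edgeR adjusted p 0.921). For each of these baits 0 of 9 bands passed in edgeR, which is 0%, and DESeq2 also called 0. At an unadjusted p under 0.05 edgeR had 1 band of the TFAP2C bait and 0 of the +180 kb bait. Without p63-null replicate 2, the TFAP2C bait had 1 band that passed, 1 to 2 Mb below it, where the remaining p63-null library had 0 contacts and the wild-type libraries had 14 and 7.

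Away from the baits the genotypes overlapped in this measure. Contacts over 1 Mb between non-bait bins joined the arms in 30.6, 28.1, 28.2 and 29.8% of cases, with the genotypes interleaved. The bins within 500 kb of the baits, with the baits left out, had 292 contacts over 1 Mb away from 229 bins. Their short-arm share was 13.8, 22.7, 21.2 and 21.8%, and the Wilson 95% intervals of the 4 libraries overlapped.

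**Figure D3:**
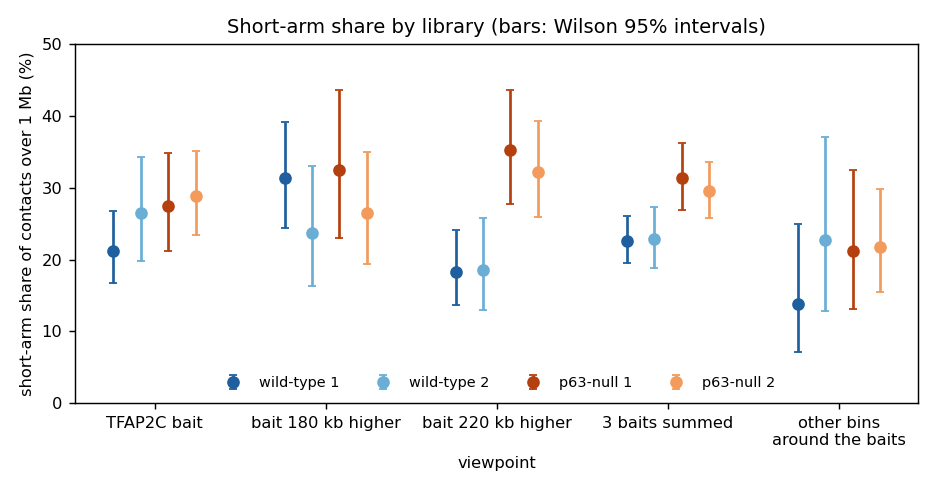
Share of the contacts over 1 Mb that fell on the short arm (vertical axis, %) for each bait, the 3 baits summed and the non-bait bins around them (horizontal axis), by library, with Wilson 95% intervals. For the +220 kb bait the p63-null libraries lie at 32.2 and 35.3% and the wild-type libraries at 18.3 and 18.6%, whereas the bins around the baits stay between 13.8 and 22.7%.

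Contacts over 1 Mb were also a larger part of all bait contacts in the p63-null libraries when every contact was counted. The total here was the contacts of the 3 baits with bins over 10 kb away, with the recurrent bins left out of it as well. Of these contacts 32.3, 34.3, 40.8 and 38.5% were distal, averaging 33.3% ± 1.42 for wild-type and 39.6% ± 1.65 for p63-null libraries (SD, n = 2 each). The difference of 6.34 percentage points was larger than the gap between replicates of either genotype, but it was 1.88 points and the genotypes overlapped when each partner bin was counted once per library (exact permutation p 0.67). The TFAP2C bait had 35.4, 37.3, 42.7 and 40.5%. The +180 kb bait had 40.8, 43.9, 46.1 and 50.2%, and the +220 kb bait had 25.9, 27.8, 36.6 and 31.6%. For each bait the p63-null libraries lay above the wild-type libraries by this count, with an exact permutation p of 0.33. With partner bins counted once the libraries interleaved for every bait, at differences of 1.252 (TFAP2C, exact permutation p 1.0), 0.74 (+180 kb, 0.67) and 2.71 percentage points (+220 kb, 0.67). With the recurrent bin kept in, those of the TFAP2C bait overlapped too (4.58 points, 0.67). The baits share libraries, so they do not replicate each other. Among pairs without a bait, contacts over 1 Mb made up 28.3, 28.3, 28.2 and 28.5% of those between different bins.

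Along the chromosome, the 1 Mb blocks with the most distal contacts all lay within 7 Mb of the baits. The block starting at 50 Mb had 104 contacts, of which 36, 25, 19 and 24 came from the 4 libraries and 37, 34 and 33 from the TFAP2C, +180 kb and +220 kb baits, so the baits met it about equally. The block at 57 Mb had 99 (38, 15, 18 and 28), and the TFAP2C bait held 51 of them. The block at 53 Mb had 79 (37, 22, 5 and 15), 45 of them from the +220 kb bait. The block at 61 Mb had 74 (18, 20, 16 and 20) and that at 52 Mb had 68 (21, 21, 6 and 20). Per covered bin, the block at 56 Mb also ranked among the first 5, with 48.4 contacts per 100 bins (19, 14, 8 and 23 contacts). On the short arm the 26 blocks with at least 150 covered bins had between 8 and 32 contacts each (median 20.5), against 17 to 47 (median 27) for the blocks from 30 to 39 Mb and 22 to 52 (median 35.5) for those from 40 to 49 Mb.

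No single block passed between the genotypes. In simulated counts of this depth the test for the sum recovered only 3.33% of 2-fold and 19.2% of 4-fold changes. In edgeR, 0 of 56 blocks with at least 10 contacts passed for the 3 baits summed, which is 0%, and 4 had an unadjusted p under 0.05. For single baits 0 of 32 (TFAP2C), 0 of 16 (+180 kb) and 0 of 27 (+220 kb) passed, with 2, 0 and 1 at an unadjusted p under 0.05. DESeq2 called 0 blocks of the sum, 1 of the TFAP2C bait, 0 of the +180 kb bait and 0 of the +220 kb bait. The block with the smallest p for the sum was that at 53 Mb, with a log2 change of -1.45 (SE 0.49, interval -2.42 to -0.47, edgeR adjusted p 0.229). Both p63-null libraries lay below both wild-type libraries there, which choosing the block by its p favours. For the +220 kb bait this block had 21, 19, 4 and 1 contacts and an edgeR adjusted p of 0.0530.

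The next 4 blocks by p, none of which passed, had their higher counts in p63-null libraries. The block at 45 Mb had 6, 0, 9 and 17 contacts (log2 change 2.25), that at 23 Mb had 5, 0, 12 and 7 (2.13), and that at 6 Mb had 2, 3, 9 and 11 (2.05). Each of these had an edgeR adjusted p of 0.566. The block at 38 Mb had 5, 2, 12 and 8 contacts (1.69, edgeR adjusted p 0.714). In all 4 of these blocks both p63-null libraries had more contacts than both wild-type libraries, in counts not scaled to the libraries' totals. The blocks were chosen by their p, which favours such a separation, so it is not separate evidence. The block that DESeq2 called for the TFAP2C bait was that at 54 Mb (adjusted p 0.0312 in DESeq2, 0.166 in edgeR), of which only the part over 1 Mb from the bait counts. It had 7, 7, 0 and 0 contacts, so the wild-type level was at least 4.56-fold higher, taking 3 contacts over both p63-null libraries as the floor. It was chosen for mention after its values were seen.

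The end of the long arm, from 60 to 63 Mb, is the gene-rich end of chromosome 20 by general knowledge, since no annotation of this build was used. It was compared with the lower-side bins at the same distances from each bait. The TFAP2C bait had 78 contacts there (19, 16, 19 and 24) against 70 on the lower side (29, 8, 11 and 22), 1.20 times as many per covered bin (exact interval 0.86 to 1.68). The +220 kb bait had 34 (12, 8, 9 and 5) against 61, a ratio of 0.60 (0.38 to 0.93). The +180 kb bait had only 7 (3, 0, 3 and 1) against 55, a ratio of 0.14 (0.053 to 0.30). By number of contacts, the TFAP2C bait met this end most often and the +180 kb bait least often in every library. By the ratio to the lower side the +220 kb bait stood above the TFAP2C bait in p63-null replicate 1 (1.93 against 1.86). Contacts without a bait were fewer in this region, with 1175 contact ends against 2534 in the lower-side interval of the TFAP2C bait. Per such contact end the ratios were 2.40 (1.72 to 3.37) for the TFAP2C bait, 1.21 (0.77 to 1.88) for the +220 kb bait and 0.28 (0.11 to 0.62) for the +180 kb bait.

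Most contacts of the TFAP2C bait in this region lay around its recurrent bin. Within 500 kb of that bin, itself left out, the bait had 57 contacts (11, 13, 16 and 17) in 33 bins, while the +180 kb bait had 4 and the +220 kb bait had 13 there. Without these bins, 21 contacts of the TFAP2C bait were left in the region (8, 3, 3 and 7) and its ratio to the lower side was 0.47 (0.27 to 0.78), the other side of 1. The +220 kb bait also had 21, a ratio of 0.54 (0.31 to 0.90) and thus the same number of contacts as the TFAP2C bait away from the recurrent bin. The +180 kb bait had 3. By block, the sum of the baits was 29 contacts at 60 Mb (9, 2, 11 and 7), 74 at 61 Mb and 16 at 62 Mb (7, 2, 4 and 3).

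As a share of distal contacts, the region from 60 to 63 Mb held 5.54, 6.37, 8.31 and 5.67% for the 3 baits summed. The genotypes overlapped, at 5.95% ± 0.59 in wild-type and 6.99% ± 1.87 in p63-null libraries (SD, n = 2 each), with an exact permutation p of 0.67. For the TFAP2C bait alone the shares were 7.48, 11.4, 11.9 and 10.7%. Leaving out p63-null replicate 1 turned the difference of 1.04 percentage points for the sum to -0.28.

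**Figure D4:**
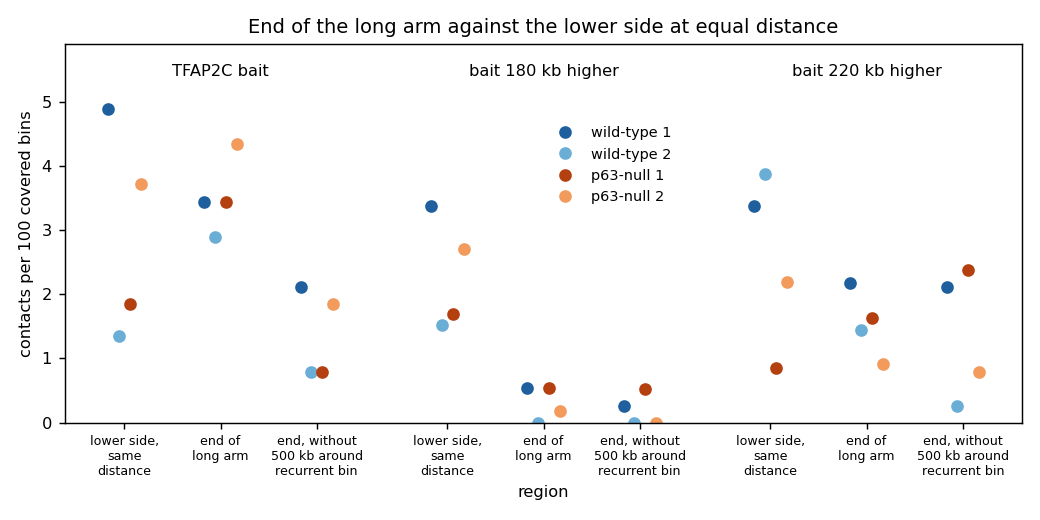
Contacts per 100 covered bins (vertical axis) by library for each bait (labelled by its distance above TFAP2C), in the lower-side interval at matching distance, in the last 3 Mb of the long arm, and there without the bins within 500 kb of the recurrent bin. For the TFAP2C bait 78 contacts drop to 21 when those bins are left out, and the bait 180 kb above it had 7 contacts.

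The recurrent bin at 61,470,001 to 61,475,000 lies 6.27 Mb above the TFAP2C bait. That bait met it 61, 83, 70 and 63 times, which was 19.4, 37.2, 30.4 and 21.9% of its contacts over 1 Mb away. The next most frequent partner had 7 contacts, 39.6 times fewer. Its shares overlapped between genotypes, at 28.3% ± 12.6 in wild-type and 26.2% ± 6.05 in p63-null libraries (SD, n = 2 each, exact permutation p 1.0). Neither of the other baits had a contact with this bin. It was not a bin rich in contacts of other kinds, with 7 contacts within the bin and 4 with non-bait bins over all libraries. The 20 covered bins within 50 kb had 16 contacts with the bait (2, 5, 6 and 3), or 80 per 100 bins. Those 50 to 500 kb away had 41 in 154 bins (9, 8, 10 and 14), or 26.6 per 100. The bait's other bins at a similar distance had 6.20 per 100, and all its remaining distal bins 6.42 per 100. The raised rate around the bin was present in all 4 libraries.

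The recurrent bin at 37,575,001 to 37,580,000 lies 17.8 Mb below the +180 kb bait, which met it 19, 32, 37 and 20 times. As a share of that bait's contacts over 1 Mb away this was 11.4, 24.8, 32.5 and 14.2%, and the genotypes overlapped (exact permutation p 0.67). Again neither of the other baits had a contact with it, and it had 5 contacts within the bin and 3 with non-bait bins. The bins within 50 kb had 17 contacts with the bait in 20 bins (2, 9, 2 and 4), or 85 per 100, of which 7 (0, 5, 1 and 1) fell in the very next bin. Those 50 to 500 kb away had 14 in 180 bins, or 7.78 per 100, against 3.51 per 100 at similar distances. The surroundings of this bin were thus raised mainly within 50 kb, whereas those of the recurrent bin of the TFAP2C bait stayed raised out to 500 kb. The difference between these patterns was not tested.

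**Figure D5:**
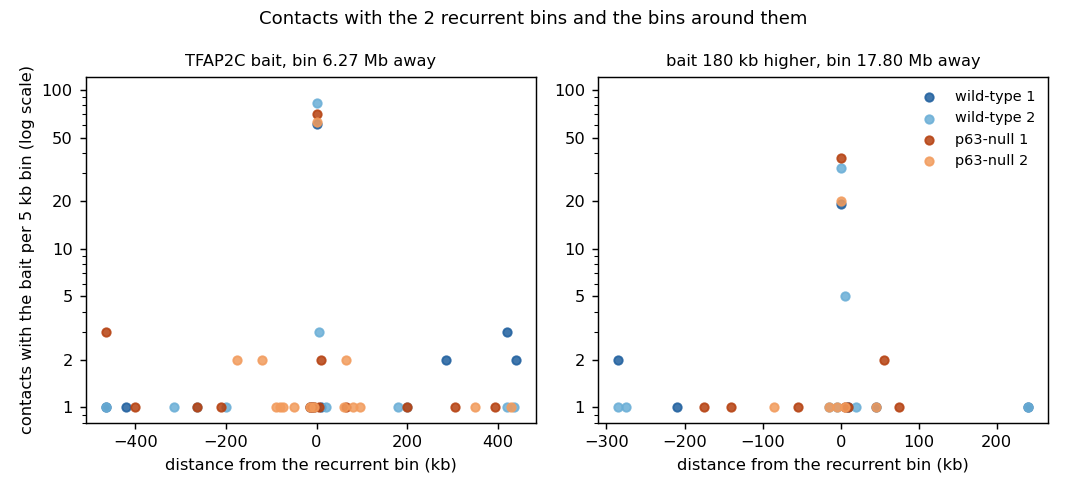
Contacts of a bait with each 5 kb bin in each library (vertical axis, log scale, bins at 0 not drawn) against distance in kb from the recurrent bin (horizontal axis), for the TFAP2C bait and the bait 180 kb above it. The recurrent bins hold 61 to 83 and 19 to 37 contacts, and no bin around them holds more than 5 in a library.

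Apart from these, single partner bins seldom came back from one library to another. Of the 1134 pairs of a bait and a distal bin, 1008 (88.9%) were seen in 1 library, 106 in 2, 18 in 3 and 2 in all 4. Both pairs found in all 4 belonged to the +180 kb bait: the bin at 50,005,001 to 50,010,000, 5.38 Mb below it, with 7, 4, 3 and 5 contacts, and the bin at 11,705,001 to 11,710,000 with 1 in each. The first of these is the most frequent of the 1134 and falls in the block with the most contacts.

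Among the 5 most frequent partners of each bait, several came from a single library. The TFAP2C bait met the bins starting at 38,420,001 (1, 0, 3 and 3), 39,660,001 (1, 3, 3 and 0) and 57,035,001 (6, 1, 0 and 0) 7 times each, the bin at 22,815,001 6 times (2, 2, 0 and 2) and the bin at 43,850,001 5 times (1, 2, 0 and 2). After the bin at 50,005,001, the +180 kb bait met the bin starting at 18,605,001 8 times (4, 0, 1 and 3) and the bin next to its recurrent bin 7 times. The bins starting at 42,810,001 (6, 0, 0 and 0) and 52,460,001 (0, 6, 0 and 0) had all their contacts in 1 library. The +220 kb bait met the bins starting at 51,095,001 (0, 1, 6 and 0), 60,555,001 (1, 0, 6 and 0), 61,845,001 (0, 6, 0 and 1) and 25,365,001 (0, 7, 0 and 0) 7 times each, and the bin at 38,705,001 6 times (1, 0, 5 and 0). None of these 15 bins had a contact with another bait.

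Repeated contacts with a single bin were more common for the baits than elsewhere. A bait and a distal bin seen in a library had 1.43, 1.52, 1.64 and 1.41 contacts on average, whereas pairs over 1 Mb apart without a bait had 1.01, 1.00, 1.01 and 1.01. Within the baits this mean was highest for the +220 kb bait in p63-null replicate 1, at 2.00. Whether these repeats are separate molecules was not tested. Counting each partner bin once per library left the replicates closer to sampling noise: over blocks of 5 Mb the chi-square per degree of freedom between replicates went from 1.495 to 1.20 in wild-type and from 1.93 to 1.10 in p63-null libraries. That step removes every repeat whatever its source, so the fall does not show where the repeats come from. Before that step the chi-square p was 0.118 for the wild-type pair and 0.0262 for the p63-null pair. At this depth the wild-type replicates thus did not detectably differ here, though they differed in depth and in their partner bins, and each was kept as a library of its own.

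Partner bins overlapped little between any pair of libraries, which shared between 14 and 49 pairs. How many would be shared at random was not worked out, so the numbers below do not tell whether partners recur beyond that. The wild-type replicates shared 49 pairs, 11.4% of those of replicate 1 and 19.8% of those of replicate 2. The p63-null replicates shared 20, which was 8.77 and 5.32%. Wild-type replicate 1 and p63-null replicate 1 shared 39, or 9.07 and 17.1%. With the replicates pooled, the genotypes shared 79 pairs, 12.6% of 629 pairs in wild-type and 13.5% of 584 in p63-null cells. Different baits shared still fewer bins: 11 for the TFAP2C and +180 kb baits (2.38 and 3.56%), 18 for the TFAP2C and +220 kb baits (3.90 and 4.96%) and 11 for the remaining pair (3.56 and 3.03%).

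At the scale of 1 Mb the likeness between libraries ranged widely on the long arm and was low on the short arm. Over 56 blocks, which are not independent and share their distance from the baits, Pearson's r of contacts per covered bin was 0.73 between the wild-type replicates, 0.52 between the p63-null replicates and 0.72 between the pooled genotypes. Wild-type replicate 1 resembled p63-null replicate 2 (0.75) as much as its own replicate. Between baits, r was 0.33 for the TFAP2C and +180 kb baits, 0.46 for the TFAP2C and +220 kb baits and 0.49 for the +180 and +220 kb baits. Over the 24 long-arm blocks below the baits r was 0.77 and 0.35 between replicates, wild-type before p63-null, 0.54 between the pooled genotypes and 0.35 to 0.40 between baits. Single libraries of different genotypes ranged further: p63-null replicate 1 had r of 0.21 and 0.19 with the wild-type replicates, and p63-null replicate 2 had 0.66 and 0.52. Between baits within a single library r lay between -0.02 and 0.38. Over the 26 blocks of the short arm it was 0.14 and -0.09 between replicates, 0.19 between genotypes and -0.06 to 0.03 between baits. On the short arm, a block met often in one library or by one bait was not detectably met more often in another.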

How the data were processed

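UMI-4C was measured in 4 libraries, 2 wild-type and 2 p63-null. The authors deposited raw counts, the number of contacts that join each pair of 5 kb bins along chromosome 20. HiC-Pro, Bowtie and build hg19 (GRCh37) are named in the submitters' processing notes, and DpnII cut the chromatin, per the labels' protocols. Versions, and whether copies of a molecule were collapsed, are not given in the sources used here.

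The members, the recurrent bins and the regions compared were chosen with earlier results of these data known. Contacts within 10 kb of a bait were left out of totals. Blocks of 1 Mb with at least 10 contacts, and 9 bands, were tested in edgeR 4.0.16 (R 4.3.3) by quasi-likelihood, two-sided, scaled to the distal contacts of each library, without further normalization. Benjamini-Hochberg adjustment ran over the blocks or bands of a bait, with a threshold of 0.05. Single shares and slopes had a two-sided exact permutation test over all regroupings of the libraries, which cannot go below 0.33 for 2 against 2 libraries. Slopes came from statsmodels 0.14.6. Shares have Wilson and rates exact Poisson 95% intervals. A correlation needed at least 150 covered bins in a block.

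Blocks were named by rank: the 5 with the most contacts, the 5 with the most per covered bin (of those with at least 50), the 5 with the smallest p and those from 60 Mb on, besides the recurrent bins and the 5 most frequent bins of each bait.

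Alternatives were DESeq2 1.42.0, TMM scaling, a replicate block, each library left out in turn, each partner bin counted once, no filter, blocks of 5 or 2 Mb, a distance of 2 Mb, rates per non-bait contact, and recurrent bins kept in. Chosen after seeing the data were bands per bait, an arm boundary at the gap in coverage, and the region from 60 Mb without 500 kb around the recurrent bin. The tests were tried on simulated data first. No sequence is printed, as no genome of this build was used.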

Additional observations from a re-analysis of the deposited data

Results flagged for a closer look

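The genotype difference in the short-arm share was larger for the +220 kb bait than for the other baits, so that the order of the baits changed between genotypes. The short-arm share of the +220 kb bait minus that of the TFAP2C bait was -2.95 and -7.86 percentage points in wild-type, against 7.79 and 3.35 in p63-null libraries. The means differed by 10.98 percentage points between genotypes (exact permutation p 0.33, the smallest possible with n = 2 each). Against the +180 kb bait the values were -13.0, -5.14, 2.83 and 5.79, a difference of 13.37 percentage points with the same exact permutation p. In both cases all wild-type libraries lay below 0 and all p63-null libraries above it. These cases were flagged because they differed between genotypes. They were picked from all differences between baits in distal share, short-arm share and share of the long-arm end. Picking them this way favours such a split and the smallest exact permutation p, so neither adds evidence. Both comparisons share the +220 kb bait, so they are not separate evidence. This bait also had the most contacts per partner bin, at 1.53, 1.69, 2.00 and 1.58, whose part in the result was not tested.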

How the results depend on the processing

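In all, 356 alternative values were computed for 42 results. The labels do not say whether the replicate numbers pair the libraries. Same-numbered libraries did not detectably deviate together (correlations between -0.10 and 0.02). With so few contacts per block these correlations cannot settle whether the libraries were paired. With a replicate block in edgeR, 2 bands of the 3 baits summed still passed (short arm 0.42, adjusted p 0.00805) and it changed no other call. DESeq2 called 1 of the 9 bands of the sum, 0 of the +220 kb bait, and 1 block of the TFAP2C bait. Counting each partner bin once left 1 band of the sum and 0 of the +220 kb bait. With 1 library left out, which assumes that a lone library varies like the other genotype's pair, 0 to 1 bands passed for the sum, for the TFAP2C bait and for the +220 kb bait. The log2 change of the short arm for the sum was 0.64 with DESeq2, 0.26 with partner bins counted once and 0.38 to 0.47 with 1 library left out, and that of the band 1 to 2 Mb below ran from -1.91 to -1.43 with 1 library left out and was -1.20 with partner bins counted once, where it still passed. For the +180 kb bait the short-arm log2 change turned to -0.11 with partner bins counted once and ran from -0.12 to 0.28 with 1 library left out.

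Differences below are p63-null minus wild-type. The share from 60 to 63 Mb of the sum was -0.28 to 2.36 percentage points with 1 library left out. Per non-bait contact end, the measure was instead the ratio of this region's rate to that of the bins below 60 Mb. That ratio differed by -0.084 for the sum and by -0.15 for the TFAP2C bait. The share of the TFAP2C bait was -0.44 percentage points with recurrent bins kept in and -0.10 without 500 kb around the recurrent bin. With 1 library left out this share ran from -0.16 to 3.79. It ran from -0.19 to 2.88 for the +180 kb bait and from -2.94 to 0.94 for the +220 kb bait, where it was 1.85 without those 500 kb. The short-arm share of the +180 kb bait was -0.40 with partner bins counted once, -0.46 with recurrent bins kept in and -1.84 to 5.75 with 1 library left out. Its slope difference was -0.0061 with partner bins counted once, and that of the +220 kb bait ran from -0.013 to 0.33. The mean ratio of the region to the lower side for the TFAP2C bait, 1.47, was 7.29 with recurrent bins kept in, 3.21 per non-bait contact and 0.49 without those 500 kb. The share of the recurrent bin of the TFAP2C bait ran from -11.1 to 6.79 with 1 library left out. That of the recurrent bin of the +180 kb bait ran from -3.94 to 14.3 and was -0.89 per 1000 contacts between different bins of the library. The causes were not tested. The mean difference in the distal share, and in the short-arm share of the sum, of the TFAP2C bait and of the +220 kb bait, stayed above 0 in all the alternatives run, but the libraries did not all stay apart. The distal share difference of the sum went from 6.34 to 1.88 percentage points with partner bins counted once. The short-arm share difference of the TFAP2C bait, 4.35, was 3.11 over 2 Mb away, where the genotypes overlapped, and 1.77 without wild-type replicate 1. The distal share difference of the +220 kb bait, 7.23, was 4.75 without p63-null replicate 1, and that of the +180 kb bait, 5.79, was 3.75 without p63-null replicate 2. Depth, 2 libraries a genotype and repeated contacts limit these results. The median short-arm block had 20.5 contacts over 4 libraries and 3 baits.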
